A study of Rattus norvegicus with 9 samples.

Results

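miR-184 is a single mature miRNA, named rno-miR-184 in the table, and it was taken from that row in all 9 libraries of the series. It is 1 of 765 listed mature miRNAs. Small RNA was sequenced from rat corneas in 3 groups, each of 3 libraries: allografts, isografts and normal corneas. Every library is labelled as Wistar and as 6 weeks of age, the allografts included. By the meaning of the words, the donor of an allograft differs genetically from its recipient and the donor of an isograft matches it, but the labels state no donor strain, no day of collection and no grading of the grafts. Libraries are called by group and by the number in the title (12, 34 or 56), whose meaning the labels do not give. The labels do not tie libraries to animals, so each p-value rests on differences between libraries, part or all of which could be technical.

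A miRNA is a short RNA that guides a silencing complex to messenger RNAs, chiefly through its seed, the bases near its 5′ end. miR-184 is best known from the eye, where it is made in the epithelium of cornea and lens, and in human families a change in its seed causes an inherited disease of cornea and lens. In cultured human keratinocytes it is known to interfere with the action of miR-205, another epithelial miRNA, on a shared target, the lipid phosphatase SHIP2. Messenger RNAs were not measured here.

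The sequences show what distinguishes miR-184 from the miRNAs it is set against below. These are its partner miR-205, miR-204-5p, known from lens, iris and pigment epithelium, and the wound and inflammation miRNA miR-21-5p. The sequences are given 5′ to 3′ from RefSeq (assembly GRCr8), with the seed, bases 2 to 8, in capitals.
rno-miR-184: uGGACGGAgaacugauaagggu
rno-miR-205: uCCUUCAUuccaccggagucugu
rno-miR-204-5p: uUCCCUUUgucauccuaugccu
rno-miR-21-5p: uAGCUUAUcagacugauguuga
The 4 seeds are all different. Of the 765 listed miRNAs, 690 have a mature sequence in RefSeq's table of 693 names, and no other name in it carries the seed of miR-184. miR-149-3p shares bases 2 to 7 only, and its level was too low to test. Aligned at the first base, no other mature miRNA of the table came closer to miR-184 than 10 mismatches, counting a difference in length as mismatches.

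miR-184 comes from 1 gene, Mir184, on the minus strand of rat chromosome 8 (GRCr8, chr8:99222982-99223058). Its hairpin of 77 bases is shown with the mature miRNA, bases 47 to 68 at chr8:99222991-99223012, in capitals, to show which arm the table counts.
Mir184 hairpin: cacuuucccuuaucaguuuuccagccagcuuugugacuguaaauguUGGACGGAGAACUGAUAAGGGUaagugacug
The mature miRNA lies in the 3′ arm, and the table lists no product of the other arm. RefSeq places no gene over Mir184 and no other gene within 10 kb of it. The nearest protein-coding genes are Ankrd34c on one side and Rasgrf1 on the other.

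Values are in RPM, the reads of a miRNA per fixed number of reads of its library. The denominators were 11001459 to 12153889 reads, and the listed miRNAs held 2909562 to 7216449 reads of a library, so the denominator also counts reads outside the listed miRNAs. Libraries of 1 group correlated across the 281 miRNAs tested at r = 0.976 to 0.994. Isograft 12 stood somewhat apart from the other isografts, at r = 0.976 and 0.981 where the other two stood at 0.993, and it had the highest denominator. Allograft 34, with the fewest listed reads, correlated with the other allografts at 0.976 and 0.983.

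miR-184 fell in both kinds of graft, and further in allografts. It had 45386, 24753 and 54480 RPM in allografts 12, 34 and 56. In isografts 12, 34 and 56 it had 134975, 143730 and 131748 RPM. In normal corneas 12, 34 and 56 it had 214371, 339752 and 311966 RPM. The 3 groups did not overlap, and every allograft lay below every isograft, which in turn lay below every normal cornea. The group means were 41540 ± 15232 RPM in allografts, 136818 ± 6200 RPM in isografts and 288696 ± 65850 RPM in normal corneas (SD, n = 3 each). In whole tissue, fewer cells of a type and less RNA per cell cannot be told apart.

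Counting error is small beside this. The lowest value, in allograft 34, rests on 272403 reads, and the highest, in normal 34, on 3739669 reads. As a share of all reads in the denominator these were 2.48% (95% exact binomial interval 2.47 to 2.48) and 33.98% (33.95 to 34.003). The intervals cover counting error only.

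**Figure D1:**
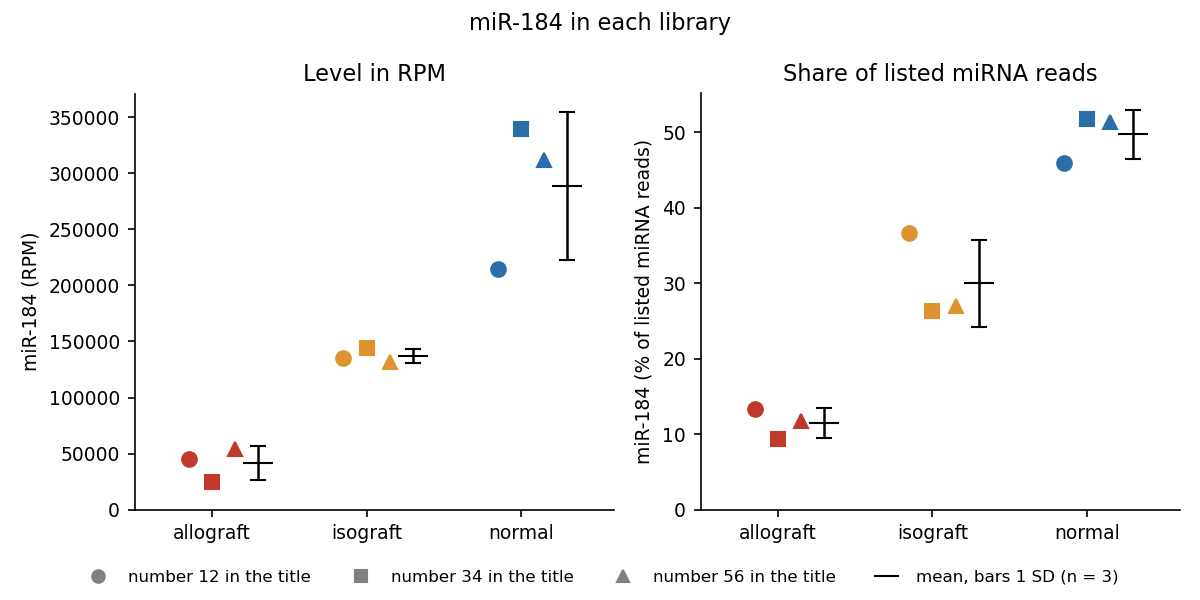
miR-184 in each of the 9 libraries, in RPM (left) and as percent of all listed miRNA reads (right); points are libraries, shaped by the number in the title, and the bars beside them show the mean and 1 SD of 3 libraries. Allografts, isografts and normal corneas do not overlap in either panel, at 9.36% to 13.4%, 26.4% to 36.6% and 46.0% to 51.8% of listed reads.

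The share of the listed miRNA reads is free of the reads outside the list, and it gave the same order. miR-184 made up 13.4%, 9.36% and 11.8% of listed reads in allografts 12, 34 and 56. It made up 36.6%, 26.4% and 27.0% in isografts 12, 34 and 56, and 46.0%, 51.8% and 51.4% in normal corneas 12, 34 and 56. Again no 2 groups overlapped. The means were 11.5% ± 2.02 in allografts, 30.0% ± 5.77 in isografts and 49.7% ± 3.24 in normal corneas (SD, n = 3 each). The groups differed (exact permutation test over the 3 groups on log2 shares, two-sided p = 0.00357, the smallest it can give, and 0.00714 after Benjamini-Hochberg adjustment over 4 within-library measures). One of these, the ratio to all other listed miRNAs, is a function of the share, and over the other 3 alone the adjusted p of the same exact permutation test was 0.0107. A pair of groups of 3 libraries cannot give an exact p below 0.1, and each of the 3 pairs gave p = 0.1.

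The spread within groups depended on the denominator. Allograft 34 and normal 12 were the lowest of their groups in RPM, and in both the listed miRNAs also held the smallest part of the reads for their group, 26.4% and 46.6%. The coefficient of variation of miR-184 was 36.7% in RPM and 17.5% as a share of listed reads in allografts. It was 22.8% in RPM and 6.52% as a share in normal corneas. The isografts went the other way, with 4.53% in RPM and 19.2% as a share. Isograft 12 had an RPM like the other isografts while its listed miRNAs held 36.8% of the reads, against 48.8% and 54.5% in the other isografts.

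In percentage points, the drop of miR-184 against normal corneas exceeded that of the listed miRNAs as a whole, but not between the grafts. miR-184 held 4.15% of all reads in allografts, 13.7% in isografts and 28.9% in normal corneas, a difference of -24.7 percentage points for allografts and -15.2 for isografts against normal corneas. The listed miRNAs together differed by -22.1 and -10.9 percentage points. All listed miRNAs other than miR-184 differed by 2.64 and 4.28 points, having held 31.4% of the reads in allografts, 33.0% in isografts and 28.8% in normal corneas. In allografts against isografts miR-184 differed by -9.53 points, the listed miRNAs together by -11.2 and the others by -1.63.

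miR-184 lost first place among the miRNAs in all 3 allografts. It ranked 2nd there, after miR-21-5p, which is induced in inflammation and wound repair and had 101991, 89617 and 144610 RPM in allografts 12, 34 and 56. The ratio of miR-184 to miR-21-5p was 0.445, 0.276 and 0.377 in these libraries. In isografts 12, 34 and 56 miR-184 ranked 1st, at 4.62, 2.0003 and 2.11 times miR-21-5p, the next most abundant miRNA. In normal corneas 12, 34 and 56 the same ratio was 32.1, 34.6 and 37.7. The lowest and highest of the 9 ratios were therefore 136-fold apart, and miR-21-5p was highest in allografts and lowest in normal corneas.

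Dominance can also be read from how many of the next most abundant miRNAs were needed to match miR-184. In every allograft 1 sufficed. In isografts 12, 34 and 56 it took 9, 5 and 5. In normal 12 it took 30, and in normal 34 and normal 56 all other listed miRNAs together did not reach miR-184. The next in line in normal corneas was miR-148a-3p in libraries 12 and 56, at 24570 and 29340 RPM. In normal 34 it was the skin and corneal epithelial miRNA miR-203a-3p, at 36441 RPM. miR-184 stood at 8.72, 9.32 and 10.6 times the next miRNA in normal corneas 12, 34 and 56.

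**Figure D2:**
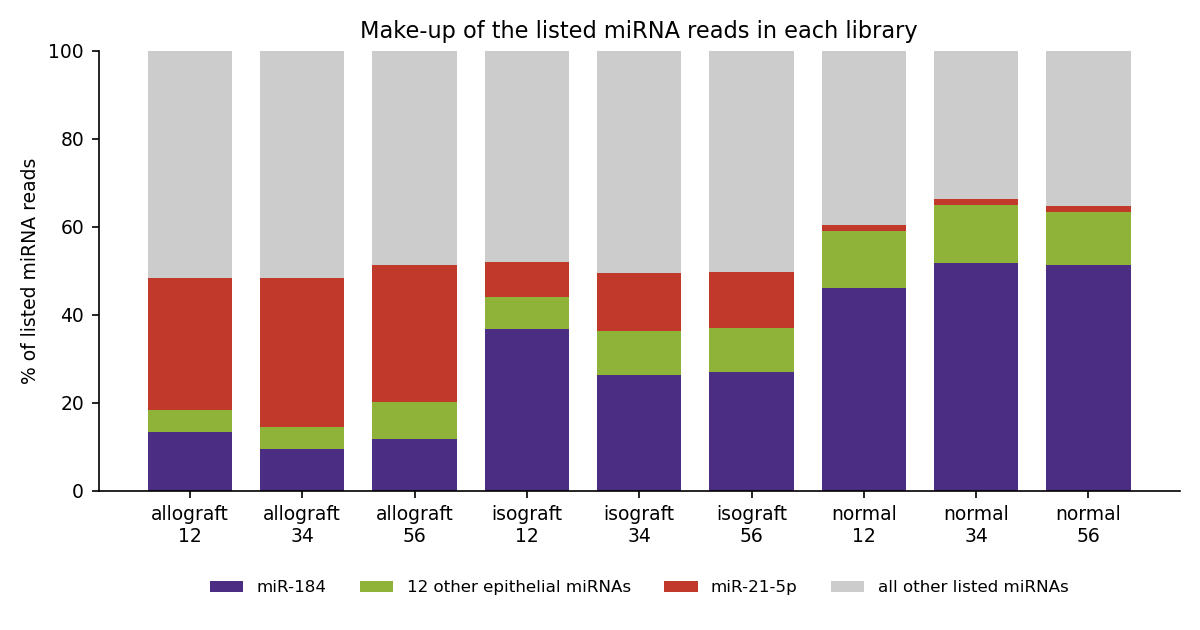
Make-up of the listed miRNA reads of each library in percent, stacked from miR-184 at the base through 12 other epithelial miRNAs and miR-21-5p to all other listed miRNAs. miR-184 takes 9.36% to 13.4% in allografts, 26.4% to 36.6% in isografts and 46.0% to 51.8% in normal corneas, while miR-21-5p takes 30.0% to 33.9%, 7.93% to 13.2% and 1.36% to 1.497%.

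Changes were tested with limma on log2(RPM + 1) over the 281 miRNAs that reached 5 RPM in 3 libraries or more. All 9 libraries entered 1 fit, with Benjamini-Hochberg adjustment and a threshold of 0.05. Its p-values use a spread pooled over the 3 groups and drawn towards a trend over the miRNAs tested. They do not measure the scatter of the 3 libraries of any 1 group, and miR-184 has the same SE in every comparison. In allografts against normal corneas miR-184 fell by 2.85 on the log2 scale (SE 0.32, 95% interval -3.49 to -2.20, adjusted p = 1.4e-08), a 6.95-fold ratio of the mean RPM values. This was the third largest fall on the log2 scale of the 281 and the largest in RPM. Calls were common in this comparison, 47.3% of the miRNAs tested, with 24.2% lower and 23.1% higher. Groups did not overlap for 60.1% of the miRNAs, 30.2% being lower in allografts.

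In isografts against normal corneas miR-184 fell by 1.05 on the log2 scale (SE 0.32, 95% interval -1.70 to -0.41, adjusted p = 0.0147), a 2.11-fold ratio of the means. Downward calls were few here, 4.63% of the miRNAs tested, beside 16.7% higher and 21.4% in either direction. Groups did not overlap for 33.5% of the miRNAs, 11.0% being lower in isografts. The fall ranked 16th on the log2 scale and first in RPM. It was not past the threshold without normal 34 (log2 fold change -0.92, adjusted p = 0.105) or without normal 56 (-0.98, adjusted p = 0.116).

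In allografts against isografts miR-184 fell by 1.79 on the log2 scale (SE 0.32, 95% interval -2.44 to -1.15, adjusted p = 8.6e-05), a 3.29-fold ratio of the means. It was again the third largest fall on the log2 scale and the largest in RPM, with 21.0% of the miRNAs tested lower, 13.5% higher and 34.5% called in either direction. Groups did not overlap for 38.8% of the miRNAs, 22.4% being lower in allografts. This comparison shares its allografts with the first and its isografts with the second. The median of all miRNAs tested was itself off 0, at -0.14 for allografts and 0.05 for isografts against normal corneas and at -0.29 for allografts against isografts. Relative to that median miR-184 stood at -2.71, -1.10 and -1.50 on the log2 scale.

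Other epithelial miRNAs fell too, with smaller fold changes in allografts. Of 12 miRNAs known from corneal and other squamous epithelium, all 12 were abundant enough to test, and 10 fell in allografts against normal corneas, where 24.2% of all miRNAs tested fell. Their median log2 fold change was -1.66, beside -0.14 for all miRNAs tested. The exceptions were miR-141-3p and miR-203b-3p, at -0.91 and -0.03. Leaving out any 1 library, or isograft 12 and allograft 34 together, left 10 or 11 of the 12 lower. In isografts against normal corneas 3 of the 12 fell, miR-205, miR-200a-3p and miR-200b-3p, beside 4.63% of all miRNAs tested, and the median was -0.66 against 0.05 for all miRNAs. The count was 0 without normal 34, 0 without normal 56, 0 with no filter on low values and 1 of 10 tested at a filter of 50 RPM. It was 1 without isograft 12, with a median of -0.29 in that case. In allografts against isografts 4 of the 12 fell, miR-200b-3p, miR-200c-3p, miR-182 and miR-183-5p, with a median of -0.91 against -0.29. That share is not far from the 21.0% of all miRNAs tested that fell in this comparison. Here the count was 11 without isograft 12, 11 without allograft 56, and 10 with the title number as a block. None of the 12 rose in the 3 comparisons in the main fit. In isografts against normal corneas 1 was higher under each of 3 other scalings, with edgeR and with DESeq2. So was 1 without isograft 12, and 1 without isograft 12 and allograft 34 together. The list was drawn up with earlier results of these data known, so its counts are a description. The 12 together had 13443 to 38445 RPM in allografts, 27193 to 54087 in isografts and 60601 to 85655 in normal corneas.

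Beside miR-184 at -2.85 in allografts against normal corneas, miR-200b-3p, of the family that keeps epithelial cells epithelial, stood at -2.71 (SE 0.35, adjusted p = 2.3e-07 by limma). miR-205, which maintains keratinocytes, stood at -2.06 (SE 0.39, adjusted p = 7.6e-05), and miR-203a-3p, which drives keratinocyte differentiation, at -1.40 (SE 0.38, adjusted p = 0.0027). None of the 12 had a lower fold change than miR-184 in allografts against normal corneas or against isografts. In isografts against normal corneas 3 had, miR-200a-3p at -1.25, miR-205 at -1.17 and miR-200b-3p at -1.08, against -1.05 for miR-184. Without isograft 12 none of the 12 was below miR-184 there, and 1 was in allografts against isografts.

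**Figure D3:**
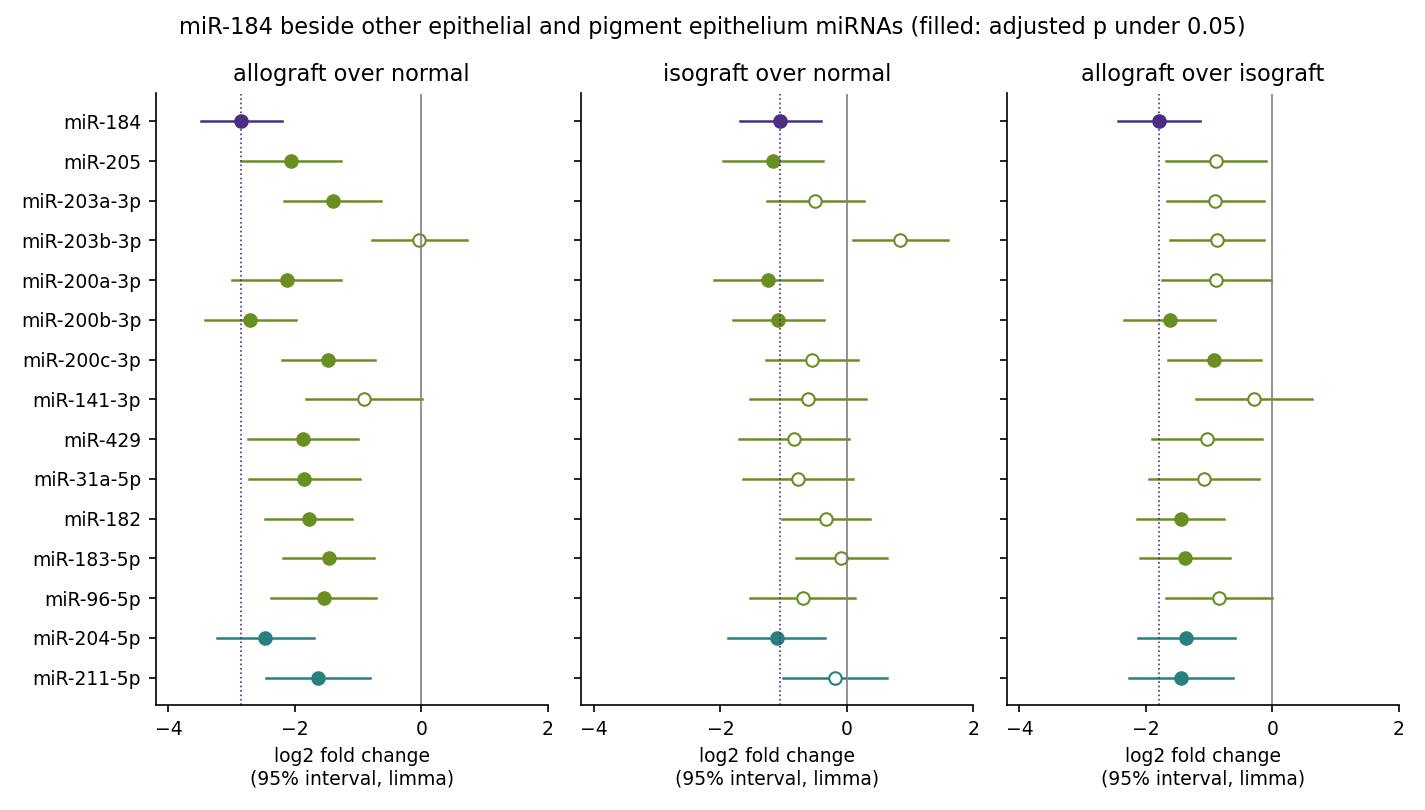
Log2 fold changes with 95% intervals from limma for miR-184 (top) and 12 other epithelial miRNAs, in 3 comparisons. Below them stand miR-204-5p and miR-211-5p, known from lens, iris and pigment epithelium. Filled points have an adjusted p under 0.05 and the dotted line marks miR-184. miR-184 lies at -2.85, -1.05 and -1.79, to the left of every other point in both panels that hold allografts.

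Ratios within a library compare miR-184 with other miRNAs whatever the denominator. Its ratio to the sum of all other listed miRNAs was 0.154, 0.103 and 0.133 in allografts 12, 34 and 56, against 0.578, 0.358 and 0.370 in isografts 12, 34 and 56 and 0.852, 1.08 and 1.06 in normal corneas 12, 34 and 56. This ratio is another form of the share of listed reads, so its order of groups follows from the shares above and it is no further test. The log2 difference from normal corneas was -2.94 (SE 0.20) in allografts and -1.22 (SE 0.25) in isografts.

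Against the summed epithelial list the shift was smaller. miR-184 stood at 2.69, 1.84 and 1.42 times the sum of the 12 in allografts 12, 34 and 56. It stood at 4.96, 2.66 and 2.68 times the sum in isografts, and at 3.54, 3.97 and 4.28 times in normal corneas, in the same order of libraries. Allografts lay below normal corneas without overlap (log2 difference -1.03, SE 0.28, exact permutation p = 0.1, the smallest 3 against 3 can give). Isografts overlapped both other groups, isograft 12 lying above every normal cornea. Over the 3 groups the difference did not pass the threshold after adjustment (exact permutation p = 0.0464, adjusted over 4 measures 0.0619, over 3 measures 0.0696). It passed without isograft 12 (adjusted p = 0.0333 over 4 and 0.0375 over 3 measures, exact permutation), without allograft 12 (0.0381 and 0.0429) and with the mean of the members' log2 values in place of their sum (0.0333 and 0.0375).

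The ratio to miR-205, with which miR-184 is paired in keratinocytes, gave no difference past the threshold. It was 11.3, 6.46 and 4.88 in allografts 12, 34 and 56, 23.4, 9.89 and 9.997 in isografts, and 10.4, 13.8 and 12.5 in normal corneas, in the same order of libraries. All groups overlapped, and the isografts spread the widest, with isograft 12 at 23.4 (exact permutation over the 3 groups, p = 0.189, adjusted 0.189). The log2 difference was -0.78 (SE 0.37) for allografts and 0.12 (SE 0.43) for isografts, both against normal corneas. miR-205 itself had 4034, 3832 and 11162 RPM in allografts, 5763, 14532 and 13178 RPM in isografts, and 20546, 24542 and 25057 RPM in normal corneas.

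**Figure D4:**
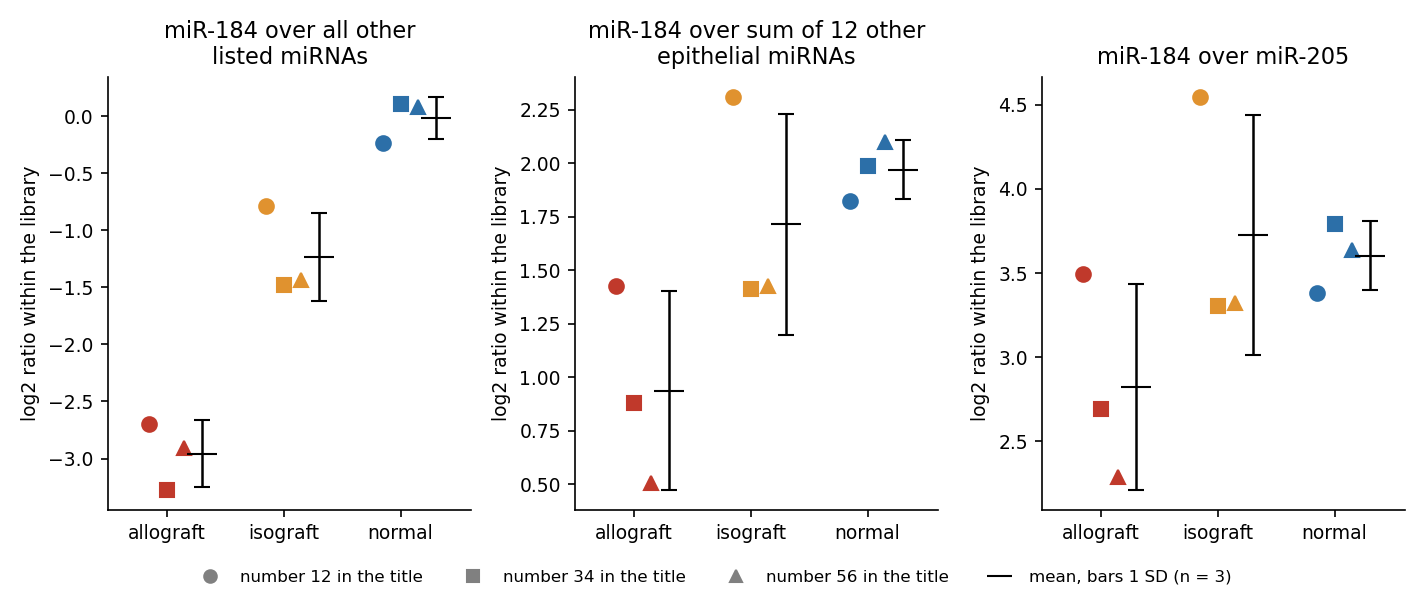
Log2 ratio, within each library, of miR-184 to all other listed miRNAs, to the sum of 12 other epithelial miRNAs and to miR-205; points are libraries, shaped by the number in the title, with the mean and 1 SD of 3 libraries beside them. The groups are apart in the first panel (mean -2.96 in allografts, -1.24 in isografts and -0.02 in normal corneas) and overlap in the third (2.82, 3.73 and 3.60).

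miR-184 is also made in the lens, and miR-204-5p and miR-211-5p in lens, iris and pigment epithelium, tissues next to the cornea. miR-204-5p had 976, 658 and 1926 RPM in allografts 12, 34 and 56, 1914, 3564 and 3059 RPM in isografts, and 4836, 6499 and 6687 RPM in normal corneas. Allograft 56 lay just above isograft 12, so the grafts overlapped, and both kinds lay below all normal corneas. It fell by 2.47 (SE 0.37, adjusted p = 3.1e-06) in allografts and by 1.11 (SE 0.37, adjusted p = 0.0308) in isografts on the log2 scale, limma against normal corneas. miR-211-5p, of the same seed family, was low, with a mean of 8.78 RPM in allografts, 24.1 in isografts and 27.5 in normal corneas. Its log2 fold change against normal corneas was -1.64 (SE 0.40, adjusted p = 0.0013) in allografts and -0.19 (SE 0.40, adjusted p = 0.823) in isografts. The sensory and epithelial miR-182 and miR-183-5p, made from 1 cluster, fell in allografts against normal corneas, with log2 fold changes of -1.78 and -1.46. In isografts they stood at -0.33 and -0.09, not past the threshold. All 5 miRNAs of this list, 3 of which the epithelial list also holds, fell in allografts, beside 24.2% of all miRNAs tested, and 1 of 5 fell in isografts, beside 4.63%. That 1 was miR-204-5p, and none of the 5 was called in isografts without normal 34, without normal 56, with no filter on low values or at a filter of 50 RPM. Their sum was 1402 to 3393 RPM in allografts, 4619 to 6479 RPM in isografts and 7797 to 10205 RPM in normal corneas. miR-204-5p was abundant in every normal cornea, so it is not taken here as a marker of the neighbouring tissues. Whether it came from the cornea itself, or RNA from these neighbouring tissues entered any library, was not tested.

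The 6 miRNAs whose profile came nearest to that of miR-184 were of 3 families. Likeness was measured as the root mean square distance between profiles of log2(RPM + 1), each centred on its mean over the 9 libraries. The 280 other miRNAs tested lay between 0.24 and 4.15 from miR-184, with a median of 1.21. The nearest was miR-200b-3p at 0.24, followed by miR-204-5p at 0.34, miR-200b-5p at 0.42, miR-204-3p at 0.43, miR-182 at 0.46 and miR-200a-5p at 0.47. miR-200b and miR-204 each appear with both arms of their hairpin. Next after the 6, at rank 7, came miR-1b, a muscle miRNA, at 0.53, so likeness was not confined to these families. The libraries are shared by all of these profiles, so depth and tissue make-up are shared too.

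miR-200b-3p followed miR-184 over the whole range. It had 1669, 1202 and 3004 RPM in allografts 12, 34 and 56, 4252, 7233 and 5721 RPM in isografts, and 9771, 12960 and 13248 RPM in normal corneas. The ratio of miR-184 to it ran from 18.1 in allograft 56 to 31.7 in isograft 12, 1.75-fold from lowest to highest, with means of 21.97 ± 4.68 in allografts, 24.9 ± 6.15 in isografts and 23.9 ± 2.16 in normal corneas (SD, n = 3 each). The ratio of miR-184 to miR-205 varied 4.80-fold over the same libraries. miR-200b-3p was chosen for its likeness, so these values carry no test.

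The profiles nearest to the mirror image of miR-184 were those of miR-146b-3p at 0.40, miR-501-3p at 0.45 and miR-146a-3p at 0.55. miR-146b-3p and miR-146a-3p are the minor arms of miRNAs induced in inflammation. All 3 were scarce, so the pseudocount of 1 RPM bears on their profiles. miR-146b-3p had a mean of 10.7 RPM in allografts, 2.96 in isografts and 0.696 in normal corneas. It and miR-146a-3p passed the filter through the allografts alone, and miR-501-3p through the grafts alone. A scarce miRNA that passes in this way is high in grafts by the filter, so these opposite profiles carry no test.

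**Figure D5:**
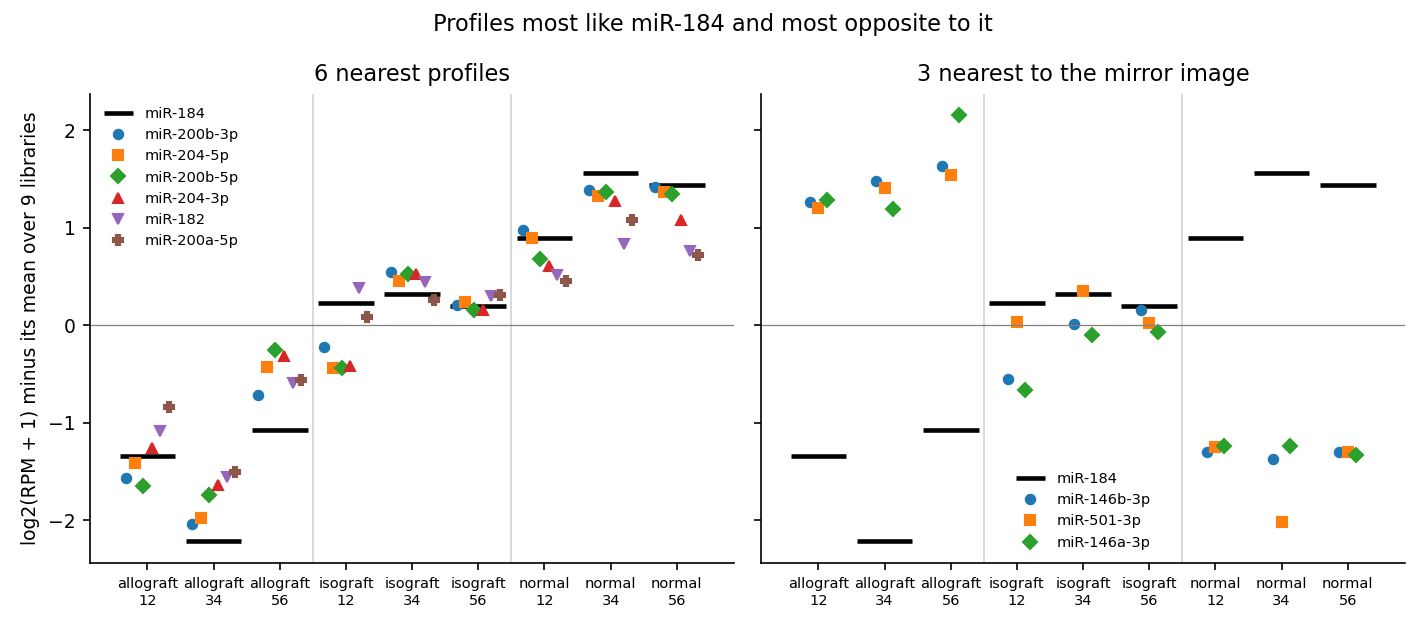
Log2(RPM + 1) minus its mean over the 9 libraries for miR-184 (black bars) and, as points, the 6 miRNAs nearest to it (left) and the 3 nearest to its mirror image (right), by library. Root mean square distances run from 0.24 for miR-200b-3p to 0.47 for miR-200a-5p on the left and from 0.40 to 0.55 on the right.

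Most of the marker miRNAs of leukocytes, stroma and endothelium were higher in both kinds of graft than in normal corneas. The 6 leukocyte miRNAs summed to 2350 to 4096 RPM in allografts, 171 to 345 RPM in isografts and 58.1 to 70.3 RPM in normal corneas, with 6 of 6 higher in allografts and 5 of 6 in isografts (limma, against normal corneas), beside 23.1% and 16.7% of all miRNAs tested. All 6 were also higher in allografts than in isografts, beside 13.5% of all miRNAs. The 8 stromal and smooth muscle miRNAs summed to 12224 to 23197 RPM in allografts, 18846 to 38858 RPM in isografts and 9767 to 12023 RPM in normal corneas, with 5 of 8 higher in allografts and 6 of 8 in isografts than in normal corneas. In allografts against isografts 3 of the 8 were lower, beside 21.0% of all miRNAs tested. The count was 6 without isograft 12, and 0 without allograft 34 or without isograft 34. Of all miRNAs 59 were called lower in the main fit, 113 without isograft 12, 19 without allograft 34 and 32 without isograft 34. Both endothelial miRNAs, the arms of miR-126a, were higher in both grafts than in normal corneas, and neither was called in allografts against isografts. Their sum was 2955 to 4874 RPM in allografts, 2095 to 6150 RPM in isografts and 346 to 857 RPM in normal corneas. None of these miRNAs was at 0 in every library. What part of the lower miR-184 goes with the share of other cells in a library was not tested.

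Blood, muscle and nerve miRNAs were low beside miR-184, but the red blood cell miRNAs summed to 1067 RPM in allograft 34. Of the 3 red blood cell miRNAs 2 were abundant enough to test, and 1 was lower in each kind of graft than in normal corneas. Of all miRNAs tested 24.2% were lower in allografts and 4.63% in isografts. That call was lost in both under the 3 other scalings, with no filter, at a filter of 50 RPM, with limma's robust variance, with edgeR and with DESeq2. It was also lost in isografts without isograft 34, without normal 12 or without normal 56, and in allografts without allograft 56. With the title number as a block, 2 were lower in each kind of graft. In allografts the median of the 2 was -1.83, but 0.40 with edgeR and 0.42 with DESeq2. The 3 red blood cell miRNAs summed to 17.5 to 1067 RPM in allografts, 13.6 to 181 RPM in isografts and 82.3 to 343 RPM in normal corneas. The highest of these was allograft 34, the library with the least miR-184. Without it the log2 fold change of miR-184 in allografts against normal corneas was -2.51 (adjusted p = 7.3e-07 by limma). The 6 muscle miRNAs summed to 38.9 to 53.0 RPM in allografts, 60.2 to 126 RPM in isografts and 243 to 323 RPM in normal corneas. Of the 3 abundant enough to test, 3 were lower in allografts and 2 in isografts, beside the same 24.2% and 4.63% of all miRNAs. One counted in both, miR-133a-3p, passed the filter through the normal corneas, so its falls are no further support. Its means were 2.70 RPM in allografts, 1.96 in isografts and 7.51 in normal corneas, and of the grafts only allograft 34 reached 5 RPM. miR-1b was also counted in both, at -3.23 and -1.78 on the log2 scale (named after its values were seen). With a mean of 230 RPM in normal corneas it made up most of the muscle sum there. Of those too scarce to test, miR-1-3p was higher in isografts than in normal corneas (means 1.48 and 0.666 RPM). miR-206-3p had its highest mean in allografts (2.27 RPM), and miR-133b-3p its highest in normal corneas (0.242 RPM). The 4 neuronal miRNAs summed to 222 to 322 RPM in allografts, 143 to 299 RPM in isografts and 173 to 244 RPM in normal corneas. Of the 3 abundant enough to test, 1 was lower in each kind of graft than in normal corneas. It was miR-138-5p, at -1.78 in allografts and -1.76 in isografts (adjusted p = 0.00018 and 0.00034 by limma), also named after its values were seen. Its means were 1.73 RPM in allografts, 1.80 in isografts and 8.02 in normal corneas, and it passed the filter through the normal corneas alone. miR-124-3p, which defines neurons, stayed at or below 0.454 RPM in all 9 libraries.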

How the data were processed

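The authors' deposited table holds RPM values of 765 mature miRNAs in 9 columns, each matched to 1 library by its title. Per the labels' protocols, libraries were made with a TruSeq small RNA kit from Trizol-extracted RNA. The submitters' processing notes name rat build rn6 and the tools bcl2fastq and BWA. Tool versions, trimming, annotation and how multiply matching reads were counted are not stated. Values were whole multiples of 1 step per library (100% within 0.1 read), so whole reads were recovered; on them miRNAs were called by edgeR (version 4.0.16) and DESeq2 (1.42.0) as alternatives, 193 and 195 for allografts against normal corneas, 163 and 171 for allografts against isografts, and 114 and 119 for isografts against normal corneas. The main model was limma 3.58.1 with a mean-variance trend in R 4.3.3, on log2(RPM + 1), tested on simulated data. Of the 765 miRNAs, 281 passed the filter of 5 RPM in 3 libraries, miR-184 among them. miRNAs were named by rule: miR-184, the next most abundant miRNA of each library, chosen members of the epithelial and lens lists, the 6 nearest profiles and the 3 nearest to the mirror image. The member, the lists and the rule were chosen with earlier results of these data known. Exact binomial intervals go with shares of a single library. Alternatives were other pseudocounts, filters and scalings, limma settings, fits of the groups compared, a replicate block and each library left out.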

Additional observations from a re-analysis of the deposited data

How the results depend on the processing

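miR-184 stayed lower in allografts than in normal corneas and than in isografts, past the threshold, in all 23 other settings of each (log2 fold change -3.08 to -2.13 and -2.03 to -1.38). Isografts against normal corneas kept the direction in 23 of 23 settings (-1.25 to -0.74) and the call in 20. It lost the call with no filter on low values (-1.05, adjusted p = 0.0627 by limma; the cause was not tested) and without normal 34 or normal 56, in a leave-one-out range of -1.25 to -0.92. Scaling to the listed miRNAs gave -0.74 there and moved the median of all miRNAs tested to 0.35 in isografts and 0.55 in allografts, both against normal corneas, and to 0.10 between the grafts. Relative to that median miR-184 stood at -1.09, -2.68 and -1.48, close to the values in RPM.

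Counts of called miRNAs moved more. For isografts against normal corneas 60 were called (47 higher, 13 lower), but 30 with a filter at 50 RPM, 115 after median of ratios scaling (66 higher, 49 lower), 120 scaled to the listed miRNAs (106 higher, 14 lower), 119 scaled without miR-184 (64 higher, 55 lower), 114 with edgeR (67 higher, 47 lower), 119 with DESeq2 (68 higher, 51 lower) and 40 to 79 with 1 library left out. For allografts against normal corneas 133 were called (65 higher, 68 lower), but 194 after median of ratios scaling, 185 scaled to the listed miRNAs and 193 scaled without miR-184. There were 193 with edgeR, 195 with DESeq2, 186 with no filter, 96 to 162 with 1 library left out and 63 with the filter at 50 RPM. For allografts against isografts 97 were called (38 higher, 59 lower), but 44 with that filter, 168 after median of ratios scaling and 168 scaled without miR-184, 163 with edgeR, 171 with DESeq2 and 42 to 146 with 1 library left out. The ends of that range were 42 without allograft 34 and 146 without isograft 12, and 52 were called without allograft 12. The cause of these shifts was not tested.

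The ratio of miR-184 to the summed epithelial list differed by -1.03 on the log2 scale in allografts against normal corneas, -1.24 with the mean of log2 values and -1.28 to -0.82 with 1 library left out. The other 3 within-library measures stayed on their side of the threshold in every setting run. Of the 6 nearest profiles, 5 were also among the nearest 6 by Pearson correlation and 6 after median of ratios scaling.

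Of the 12 epithelial miRNAs, those lower in isografts than in normal corneas numbered 3, but 8 after median of ratios scaling, 7 with edgeR and 9 with DESeq2. In allografts against isografts they numbered 4, but 11, 10 and 11 in these settings and 3 to 11 with 1 library left out. In allografts against normal corneas they numbered 10 or 11 throughout. These counts under other settings were added after seeing the data.

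The correlation of deviations between libraries of the same number was mixed in sign, from -0.51 to 0.56, and was over 0.1 for 2 of 9 pairs. Those 2, isograft and normal 34 (0.30) and allograft and isograft 56 (0.56), were best matches. With 3 libraries a group this check is too small to decide whether the number pairs libraries. The labels do not explain the number, so it was not taken to pair them. With it as a replicate block miR-184 gave -1.05, -2.85 and -1.79 (adjusted p = 0.0168, 6.1e-14 and 1.1e-05 by limma), and 66, 143 and 112 miRNAs were called; 10 of the 12 epithelial miRNAs were then lower in allografts than in isografts. A fit without isograft 12 and allograft 34, chosen after seeing the data, gave -1.04, -2.51 and -1.47. Depth does not limit miR-184, which had at least 272403 reads in every library, but 3 libraries a group do.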
